A study of Mus musculus with 12 samples.

Results

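The turn of the pituitary response from 1 h to 3 h after the start of restraint was measured in mice with an intact Crhr1 gene, the gene of the receptor for corticotropin-releasing hormone (CRH). The arrays were chosen by their titles: 2 arrays of the wild-type 3 h group were set against 2 arrays of the wild-type 1 h group, 4 of the 12 arrays of the series. The other 8 arrays were wild-type controls and a Crhr1 knockout at the same 3 treatments, 2 arrays each. Whole-pituitary RNA was hybridised to Illumina mouse bead arrays, which report for each gene the brightness of beads that carry a matching probe.

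Every mouse, controls included, received metyrapone intraperitoneally in a first dose of 150 mg/kg 12 h ahead of the restraint of 30 min and a second of 100 mg/kg just before it, and basal blood was drawn from the orbital sinus after the second injection. Metyrapone blocks the last step of corticosterone synthesis, and this block is shared by all groups. Control mice were injected in the same way and were killed 1 to 3 h later. Pooled amplified RNA was hybridised, the number of mice per pool, their strain and their age are not given in the sources used here, and the titles call the 2 arrays of a group technical replicates. The standard errors and p-values below therefore measure the spread between arrays of pools, not between mice.

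The anterior pituitary responds to stress through corticotropes, which receive CRH and vasopressin from the hypothalamus, raise cAMP and calcium, and release adrenocorticotropin cut from the product of Pomc. In many cell types such a stimulus first induces immediate early genes, whose transcripts need no new protein, appear within minutes and are short-lived. Their products (the AP-1, Egr and Nr4a transcription factors) then act on later genes, among them genes that feed back on the signal.

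On the 4 arrays 11209 to 13506 of 46147 probes were detected. Across the 11766 features kept for the tests, replicate arrays correlated at 0.977 at 1 h and at 0.974 at 3 h. The pituitary hormone genes Gh and Prl were the brightest on these arrays, with raw intensities of Gh up to 69590, and Pomc lay next to them. No change of these 3 genes is read, because quantile normalization gave them the same ranks and values. The Crhr1 probe used for the tests was not detected on any of the 4 arrays, so it does not check the genotype. A second, uncalled Crhr1 probe was detected on 3 of the 4, with mean levels of 5.94 at 1 h and 6.28 at 3 h. On both slides the 1 h array lay in position 1 and the 3 h array in position 2, so array position and time cannot be told apart.

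Of 11766 features tested (8592 named genes and 3174 probes without a gene symbol), 236 changed between 1 h and 3 h, 2.01% of the total. A change, or call, required a Benjamini-Hochberg adjusted p under 0.05 in limma and a difference of at least 1.5-fold. Higher at 3 h were 98 features (0.833%), 71 of them named, with a median log2 difference of 1.14. Lower at 3 h were 138 features (1.17%), 100 of them named, with a median of -1.06. The largest losses exceeded the largest gains, with a range from -3.34 to 2.23, while the median of all features was -0.02. All 236 had the same sign on both slides, as did 7729 of all 11766 features. The calls were made from these same arrays, so the agreement is not an independent check. Of the 98 features called higher, 40 were not detected on either 1 h array, and of the 138 called lower, 25 were not detected on either 3 h array.

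**Figure D1:**
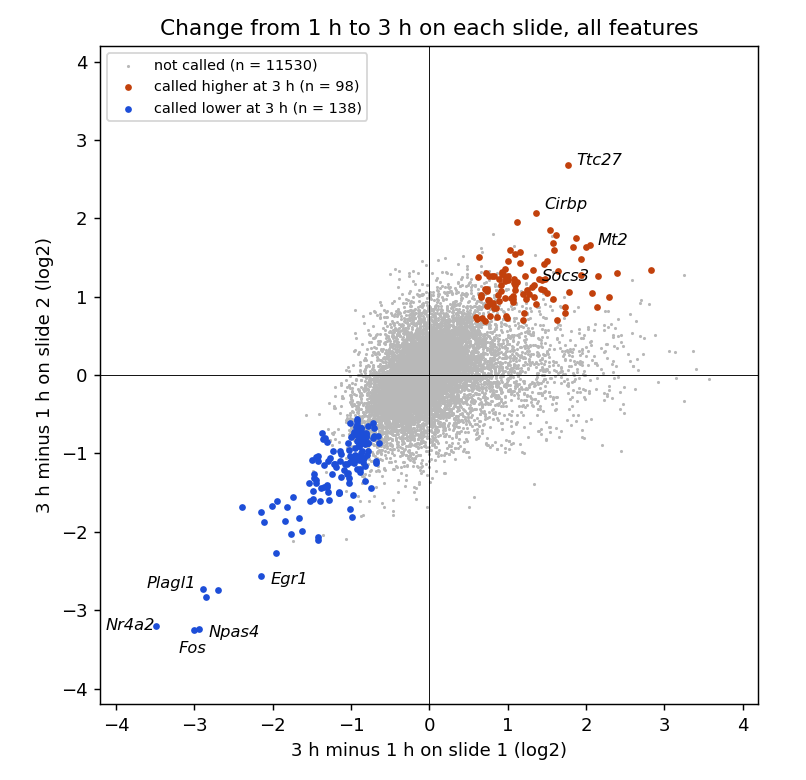
Difference 3 h minus 1 h (log2) on slide 1 (replicate 1 arrays, horizontal axis) and on slide 2 (replicate 2 arrays, vertical axis), one point per feature, with the 98 features called higher in orange and the 138 called lower in blue. The calls, made from these same arrays, lie near the diagonal, with Nr4a2, Fos and Npas4 at the lower left. A tail of uncalled features is high on slide 1 and near 0 on slide 2.

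The size of the count depended on how the spread was estimated. It was taken from 10 arrays, without the 2 knockout 3 h arrays, whose replicates differed by an SD of 0.702, while that of the remaining groups was 0.33 to 0.431. With those arrays in the fit 65 features and 30 of the 57 named genes were called, and without any 1 of the 4 wild-type 1 h and 3 h arrays between 9 and 20.

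The promoters of Nr4a2, Npas4, Fosl2 and Socs3 are shown here, the 4 genes with the smallest adjusted p among the called early-response, cAMP and cytokine genes with an entry in the promoter table used here. Egr1, with a smaller adjusted p than Fosl2, is not among them. Each runs from 250 bases before to 50 bases after the gene start, from RefSeq on GRCm38.p6. Capitals mark TGACG or its reverse complement, the core of the cAMP response element bound by CREB, in Nr4a2 and Npas4, and TTCNNNGAA, the motif of STAT factors, in Socs3. They lie at chr2:57123954-57124253 (minus strand), chr19:4989922-4990221 (minus strand), chr5:32136222-32136521 (plus strand) and chr11:117969317-117969616 (minus strand).
Nr4a2: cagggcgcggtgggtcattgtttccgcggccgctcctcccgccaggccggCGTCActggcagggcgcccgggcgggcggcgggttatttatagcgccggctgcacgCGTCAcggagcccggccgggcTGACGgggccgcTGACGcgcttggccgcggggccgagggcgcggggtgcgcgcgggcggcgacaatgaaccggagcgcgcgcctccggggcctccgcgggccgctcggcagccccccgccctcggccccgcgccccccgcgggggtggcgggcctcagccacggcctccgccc
Npas4: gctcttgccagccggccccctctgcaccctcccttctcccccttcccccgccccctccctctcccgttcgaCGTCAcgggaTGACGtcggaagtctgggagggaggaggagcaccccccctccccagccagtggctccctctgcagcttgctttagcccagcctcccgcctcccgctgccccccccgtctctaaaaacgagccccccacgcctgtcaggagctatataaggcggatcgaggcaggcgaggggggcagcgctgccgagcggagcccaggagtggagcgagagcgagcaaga
Fosl2: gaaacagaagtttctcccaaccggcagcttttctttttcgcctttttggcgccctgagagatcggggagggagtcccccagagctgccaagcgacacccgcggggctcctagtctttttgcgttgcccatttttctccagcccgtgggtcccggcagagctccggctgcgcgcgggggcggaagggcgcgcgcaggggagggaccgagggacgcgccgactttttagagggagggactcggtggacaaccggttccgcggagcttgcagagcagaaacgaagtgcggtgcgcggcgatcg
Socs3: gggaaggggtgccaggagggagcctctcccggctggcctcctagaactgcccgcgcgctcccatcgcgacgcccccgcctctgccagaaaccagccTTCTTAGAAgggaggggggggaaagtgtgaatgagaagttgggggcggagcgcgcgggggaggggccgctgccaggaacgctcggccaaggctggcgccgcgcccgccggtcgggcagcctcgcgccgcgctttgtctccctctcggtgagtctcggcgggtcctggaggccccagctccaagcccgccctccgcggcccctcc
The Nr4a2 promoter held 4 copies of TGACG on either strand, the first at base -200 and the last at base -107 from the start. The Npas4 promoter held 2 copies between bases -179 and -165, and the Socs3 promoter held 1 STAT motif between bases -154 and -146. Of the motifs searched on both strands, no match was found in the Fosl2 window. These were TGACGTCA, TGACG (also the left part of the former), TGANTCA, TTCNNNGAA, GCGTGGGCG and the CArG box.

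TGACG was in 20.8% of all 32851 promoters of the table, and TTCNNNGAA in 8.3%. Of the 10 called AP-1, Egr, Nr4a, other early-response and cAMP-list genes with an entry, 8 held TGACG (Atf3, Egr2, Fos, Junb, Klf2, Nfil3, Npas4 and Nr4a2). The motif was in 10 of the 14 promoters of these genes (71.4%). The cAMP list was itself drawn up from targets of CREB and feedback genes. Over all called genes with an entry, TGACG was in 39.0% of the promoters of genes called lower and in 37.3% of those of genes called higher. The promoter table is not limited to the features tested here, and the share among uncalled features was not computed, so no enrichment is read. A match describes letters in the window and is not a measured binding site.

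Most measured AP-1 factors, dimers of Fos and Jun family proteins that bind DNA together, fell from 1 h to 3 h. Of 9 measured members 5 were called lower and none higher, and the list's median log2 difference was -1.78. Normalised log2 intensities of Fos were 11.06 and 11.11 on the 1 h arrays and 8.06 and 7.86 on the 3 h arrays, a fall by 8.73-fold (log2 difference -3.13 ± 0.41, SE, 2 arrays per group, limma adjusted p = 0.0154). Its 2 control arrays read 9.78 and 8.32, so both 3 h values lay below both controls, a comparison not tested here.

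Fosl2, a Fos relative, read 10.58 and 10.15 at 1 h and 8.19 and 8.46 at 3 h (log2 difference -2.04 ± 0.21, adjusted p = 0.00591). Its controls, at 10.24 and 9.82, lay close to the 1 h values and well above the 3 h values. Junb, a Jun partner of Fos, read 9.62 and 9.71 at 1 h against 7.67 and 8.10 at 3 h (-1.78 ± 0.28, adjusted p = 0.023). The 3 h values of Junb were near those of the controls, 8.35 and 8.30.

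Jun and Atf3, a stress-induced member of the wider family, were detected on both 1 h arrays and on neither 3 h array, so that their change has only a bound. For Jun the fall was at least 2.91-fold (adjusted p = 0.0263) and for Atf3 at least 1.98-fold (adjusted p = 0.0183). Such a bound sets the brighter group against the lowest detected signal of the dimmer arrays. Fosb did not pass the test. It read 7.82 and 8.69 at 1 h and 9.53 and 8.96 at 3 h (adjusted p = 0.25), a difference of 1.71 on slide 1 and 0.27 on slide 2.

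The zinc-finger factors Egr1, Egr2 and Egr3 and the orphan receptor Nr4a2 also fell. Of 7 measured members of this list 4 were called lower, with a list median of -1.17. A negative difference was found for 5 and a positive one, up to 1.01, for 2, neither of them called. Nr4a2 had the largest and most significant fall of all features, from 10.84 and 10.97 at 1 h to 7.36 and 7.77 at 3 h, which is 10.1-fold (log2 difference -3.34 ± 0.19, adjusted p = 0.00064). Its controls read 9.90 and 9.76, above both 3 h arrays. A second Nr4a2 probe, on its own, fell by 3.15 on the log2 scale (adjusted p = 8.75e-05). Nr4a1 and Nr4a3, the relatives of Nr4a2, were on the array but below the detection filter.

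Egr1 read 12.44 and 12.49 at 1 h and 10.30 and 9.93 at 3 h, a 5.11-fold fall (adjusted p = 0.00377), and its controls, at 11.87 and 11.48, lay between the groups. Egr3 and Egr2 were not detected at 3 h, so their falls were at least 3.84-fold (adjusted p = 0.00601) and at least 1.40-fold (adjusted p = 0.0214). Egr4, at 6.87 and 6.67 against 5.46 and 6.18, did not pass (log2 difference -0.95, adjusted p = 0.233).

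Among 17 other early-response genes 3 were called lower, none higher, and 15 had a negative difference (median -0.51). Npas4, a neuronal activity factor of excitable cells, read 8.23 and 8.31 at 1 h and was not detected at 3 h, at least 4.77-fold lower (adjusted p = 0.000884). Arc, a cytoskeletal early gene of neurons, read 7.63 and 7.64 at 1 h and was also undetected at 3 h, at least 3.07-fold lower (adjusted p = 0.0348). Klf2, a Krüppel-like factor, read 7.50 and 7.24 at 1 h and 6.08 and 6.15 at 3 h (adjusted p = 0.0267), near the control values of 6.15 and 6.26. It was detected on only 1 of the 3 h arrays and 1 of the control arrays, so both groups lay near the detection limit.

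**Figure D2:**
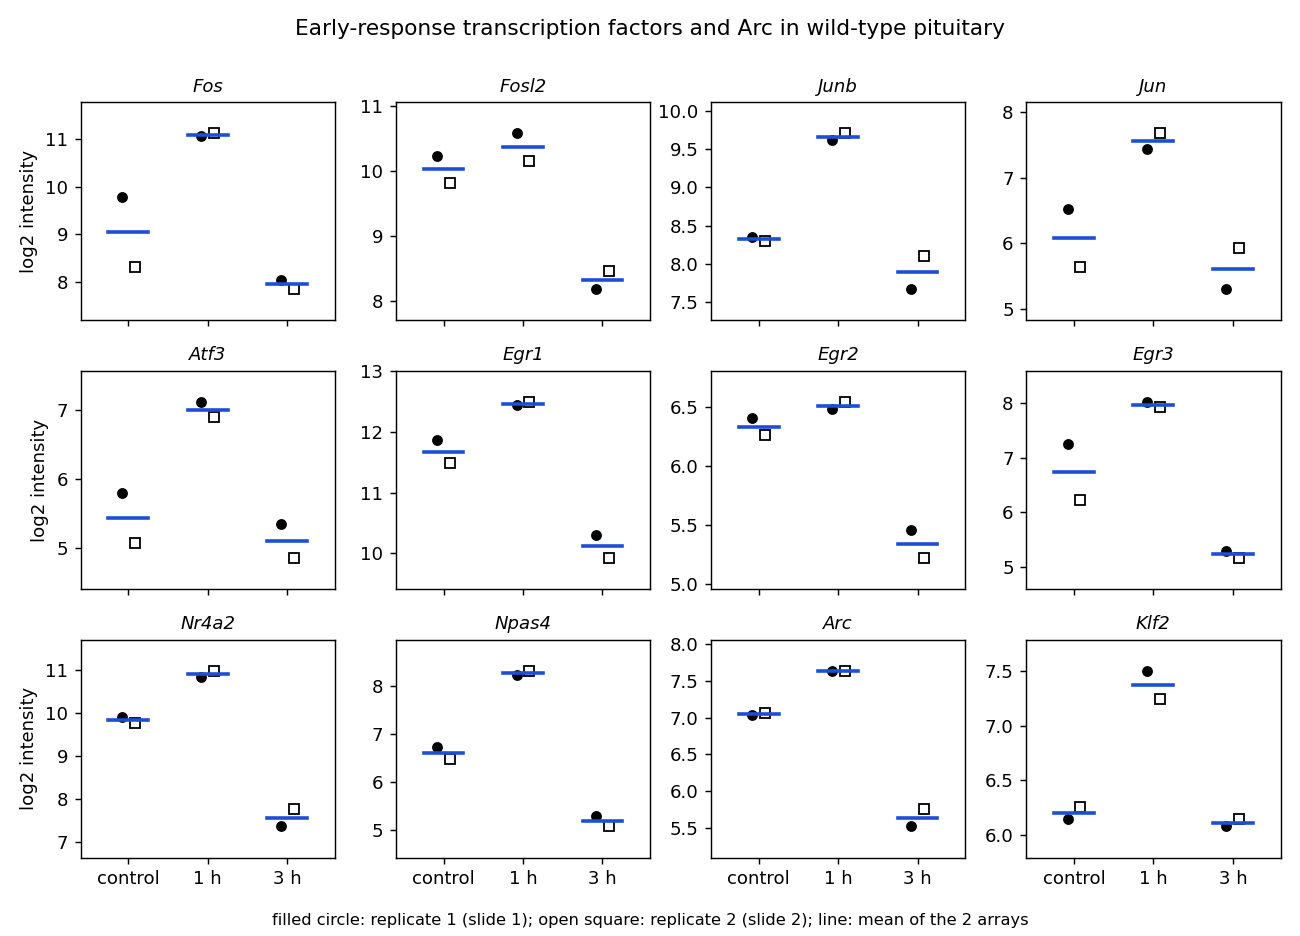
Normalised log2 intensity of 12 early genes in control, 1 h and 3 h wild-type pituitary, with 1 point per array, a circle for replicate 1, a square for replicate 2 and a line for the mean of the 2. The vertical axes differ in range between panels. In each panel both 1 h arrays lie above both 3 h arrays, and for Fos, Fosl2, Junb, Egr1, Egr2, Egr3, Nr4a2, Npas4, Arc and, narrowly, Klf2 both control arrays lie above both 3 h arrays as well.

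When the 12-array spread was used, the called members were 4 of 5 for AP-1, 4 of 4 for Egr and Nr4a and 1 of 3 (Npas4) for the other early genes. Without any 1 of the 4 compared arrays, at most 1 AP-1 member (Fosl2) was called, while Egr1, Nr4a2 and Npas4 were called each time.

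Dusp1, Dusp5, Dusp8 and Errfi1, which feed back on MAP kinase signalling, also fell. Of 11 measured members of the MAPK feedback list 4 were called lower and none higher (median -0.47). Dusp1, the phosphatase that removes phosphate from MAP kinases in the nucleus, read 12.15 and 12.04 at 1 h against 10.41 and 10.48 at 3 h, 3.14-fold lower (adjusted p = 0.0128). Errfi1, an inhibitor of the EGF receptor, fell by 2.24-fold (adjusted p = 0.0121), Dusp5, a phosphatase of ERK, by 2.25-fold (adjusted p = 0.0194) and Dusp8, a phosphatase of stress-activated kinases, by 1.67-fold (adjusted p = 0.0466). Both 3 h arrays of Dusp1 lay below its controls, at 11.40 and 10.98. Dusp6 was not called (log2 difference 0.18). Dusp1 and Dusp5 were also called with the 12-array spread, and without any 1 of the compared arrays none of the list.

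In the cAMP list 2 of 15 measured members were called lower, none higher, and 12 had a negative difference (median -0.38). Rasd1, a Ras-like protein that dampens G-protein and cAMP signalling, read 8.72 and 8.65 at 1 h against 7.10 and 6.66 at 3 h (3.50-fold lower, adjusted p = 0.0187). Nfil3, a repressor of the clock family, fell from 10.51 and 10.45 to 9.16 and 9.63 (adjusted p = 0.0302). Crem, whose ICER product represses cAMP-driven genes, read 8.16 and 8.24 against 7.47 and 7.44 and narrowly missed the threshold (adjusted p = 0.0552). Per1, at 8.22 and 7.84 against 7.19 and 7.28, also missed it (adjusted p = 0.0826). With the 12-array spread, and without any 1 of the compared arrays, no member was called.

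Genes that glucocorticoids induce in other tissues went both ways. Of 21 measured members 3 rose (Mt2, Hif3a and Mt1) and 3 fell (Errfi1, Dusp1 and Cebpb). The median was 0.44 and 14 differences were positive. The metallothioneins Mt1 and Mt2, small proteins that bind zinc and copper, read 12.28 and 12.25 (Mt1) and 8.02 and 7.75 (Mt2) at 1 h. At 3 h they read 13.28 and 13.46 (2.16-fold higher, adjusted p = 0.0261) and 10.07 and 9.41 (3.61-fold higher, adjusted p = 0.0154). Their 1 h values were close to the controls, which read 12.10 and 12.17 for Mt1 and 7.95 and 7.56 for Mt2. Hif3a, an alpha subunit of the hypoxia-inducible factor family, was 2.23-fold higher (adjusted p = 0.0183), while its second, dimmer probe differed by -0.06. Fkbp5, a co-chaperone of the glucocorticoid receptor, did not pass (0.15, adjusted p = 0.733). With the 12-array spread Mt2, Hif3a and Dusp1 were called, and without any 1 of the compared arrays at most 1 member (Mt2).

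Of 21 measured cytokine and acute-phase genes 1 rose and 2 fell (median 0.18). Socs3, the inhibitor that STAT3 induces against cytokine receptors, read 8.85 and 8.89 at 1 h and 10.18 and 10.04 at 3 h (2.37-fold higher, adjusted p = 0.0128). Its controls, at 8.21 and 8.01, lay below both stressed groups, and the ordering was control, 1 h, 3 h on each slide. Nfkbiz, an inducible cofactor of NF-kB, read 9.13 and 9.34 at 1 h and 7.98 and 7.83 at 3 h (adjusted p = 0.0414), and Cebpb, a bZIP factor, fell by 1.71-fold (adjusted p = 0.0487). Serpina3n, an acute-phase protease inhibitor, read 7.11 and 7.26 against 8.45 and 8.79 and missed the threshold (adjusted p = 0.0518). With the 12-array spread Socs3 was called and Nfkbiz and Cebpb were not, and without any 1 of the compared arrays no member was. With the slide as a block Nfkbiz had a limma adjusted p of 0.0529, and Cxcl1, another member, was called lower. With median centring both Nfkbiz (0.0812) and Cebpb (0.0989) were not called, while Serpina3n was called higher. The list then held 2 members called higher (Socs3 and Serpina3n) and 0 called lower.

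**Figure D3:**
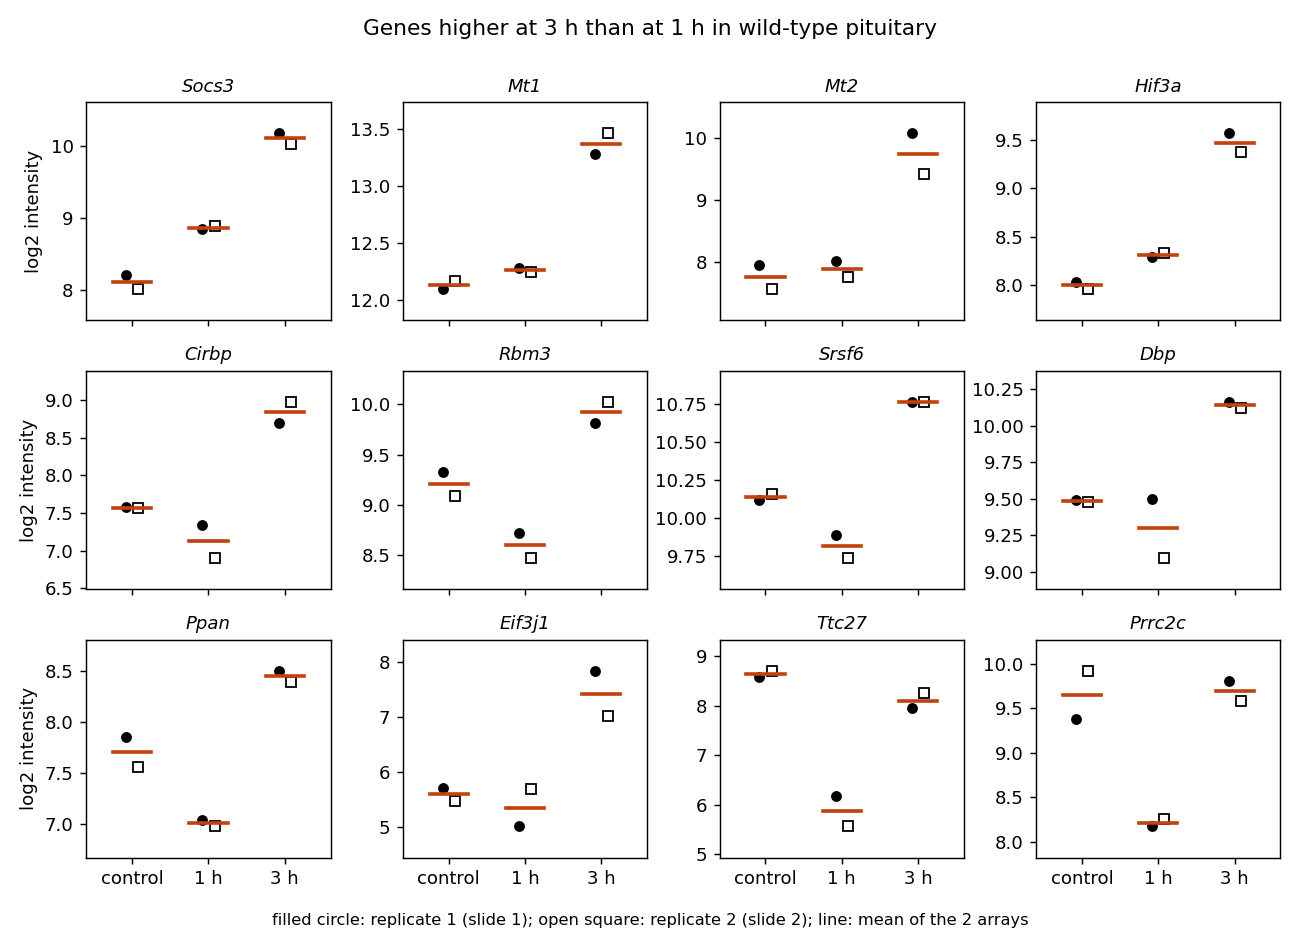
Normalised log2 intensity of 12 genes called higher at 3 h than at 1 h, in control, 1 h and 3 h wild-type pituitary, drawn as in the plot of early genes. Socs3, Mt1, Mt2, Hif3a, Cirbp, Rbm3, Srsf6, Dbp, Ppan and Eif3j1 have both 3 h arrays above both control arrays. For Ttc27 both 3 h arrays lie below both control arrays, and for Prrc2c they lie within the control range.

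Both cold-inducible RNA-binding proteins, Cirbp and Rbm3, and 1 splicing factor rose at 3 h. Of 21 measured members of the splicing and cold-inducible list 3 were called higher and none lower (median 0.24). Cirbp, an RNA-binding protein induced by mild cold, read 7.34 and 6.91 at 1 h and 8.70 and 8.98 at 3 h (3.28-fold higher, adjusted p = 0.0107). Rbm3, its cold-induced relative, read 8.72 and 8.47 against 9.82 and 10.02 (adjusted p = 0.0348). Srsf6, a splicing factor, read 9.89 and 9.74 against 10.76 on both arrays (adjusted p = 0.0184), but a second Srsf6 probe was not called, at -0.28. The control values of Rbm3 (9.33 and 9.09) and Srsf6 (10.12 and 10.16) lay between the groups. Cirbp and Srsf6 were also called with the 12-array spread, and without any 1 of the compared arrays at most Cirbp.

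Some co-chaperones fell. Of 17 measured heat shock and co-chaperone genes 3 fell and none rose (median -0.24). Hsph1, a nucleotide exchange factor of Hsp70, fell by 2.30-fold (adjusted p = 0.0183), Dnajb1, an Hsp40 co-chaperone, by 1.86-fold (adjusted p = 0.023) and Chordc1, an Hsp90 co-chaperone, by 2.63-fold (adjusted p = 0.0424). Both 1 h arrays of Hsph1 (10.84 and 10.88) were close to its controls (10.74 and 10.93), and the 3 h arrays (9.81 and 9.50) lay below them. With the 12-array spread Hsph1 and Dnajb1 were called, with median centring likewise, and without any 1 of the compared arrays none.

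Other called list members were single genes. Dbp, a clock-controlled output factor, rose by 1.79-fold (adjusted p = 0.0477), from 9.50 and 9.10 to 10.16 and 10.12, in a clock list of 16 measured members where Nfil3 was the only other call, and with the slide as a block it missed the threshold (0.0522). Eprs, the glutamyl-prolyl-tRNA synthetase, rose by 2.18-fold and Eif1a, an initiation factor, by 1.58-fold, 2 of 21 translation genes. Eif3j1, an initiation factor subunit outside that list, was also called higher. Msmo1, an enzyme of cholesterol synthesis, rose by 1.58-fold, 1 of 22. Creld2, an ER stress protein, fell by 1.73-fold, 1 of 22 genes of the unfolded protein response. Txnl1, a thioredoxin-like protein of the proteasome, was at least 2.62-fold lower (adjusted p = 0.00359), 1 of 15 redox genes, and was called without each compared array in turn. With the 12-array spread Dbp, Eprs, Eif1a, Msmo1 and Creld2 were not called, and with median centring Eif1a, Msmo1 and Creld2 were not.

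Among the excitability and receptor lists, Kcnd2, a voltage-gated potassium channel, fell by 2.03-fold (1 of 14 measured channels) and Gpr83, a G-protein-coupled receptor, by 2.45-fold (1 of 9 receptors, with a second probe at -0.17). The receptor Gper1, outside that list, was called lower as well. Tshb, the beta subunit of thyrotropin, read 12.91 and 12.85 at 1 h and 12.01 and 11.95 at 3 h (1.87-fold lower, adjusted p = 0.0445), while the controls read 12.82 and 12.75. It was the only call among 9 gonadotrope and thyrotrope markers, and Tshb and Kcnd2 were called neither with the 12-array spread nor with median centring. Fewer thyrotropes in a pool and less transcript per cell cannot be told apart in whole-pituitary RNA.

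No member passed in 13 lists: hypoxia and glycolysis, ribosome biogenesis, ribosomal proteins, the respiratory chain, the proteasome, vesicle fusion, cell division, interferon response, corticotropes, somatotropes, folliculostellate cells, neurons and fibroblasts. This holds for the listed members only. Ppan, a ribosome biogenesis factor outside that list, was called higher, as given further on. By limma's unadjusted p under 0.05 each of the 13 lists held 0 to 7 members. Of all 11766 features 2251 were under that limit. Shares were larger among vesicle fusion (7 of 26), ribosome biogenesis (4 of 16), cell division (2 of 8) and interferon (2 of 6) genes. They were smaller in the other uncalled lists. Ribosomal protein genes had 49 measured members with a median of 0.12 and 5 under that limit, and respiratory chain genes had 44 with a median of 0.06 and 6 under it. Tbx19, the corticotrope factor that drives Pomc, read 7.98 and 7.77 at 1 h and 8.11 and 8.39 at 3 h and did not pass (adjusted p = 0.295). Some uncalled members were high on slide 1 alone. Atp5a1, an ATP synthase subunit, read 8.58 and 9.59 at 1 h and 10.93 and 10.07 at 3 h (adjusted p = 0.22).

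**Figure D4:**
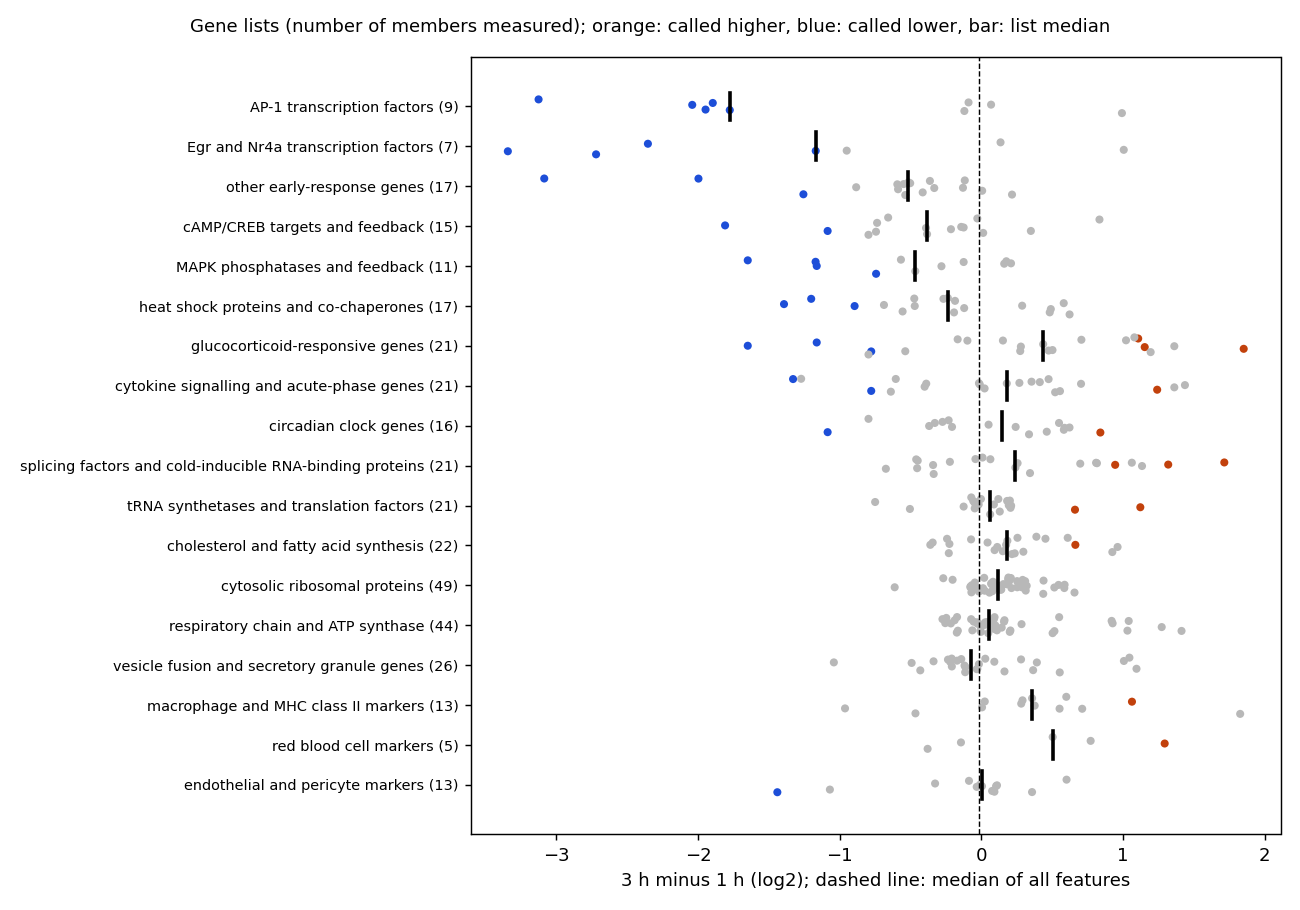
Log2 difference 3 h minus 1 h of each measured member of 18 gene lists, with the number measured in parentheses, members called higher in orange, called lower in blue and not called in grey. A black bar marks the list median and the dashed line the median of all features at -0.02. The AP-1 and Egr and Nr4a lists have medians of -1.78 and -1.17.

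Single markers of other cells were called. The summed linear intensity of 5 measured red blood cell genes was 4809 to 5132 on the 1 h arrays and 7695 to 8021 on the 3 h arrays, and 3 of the 5 had a positive and 2 a negative difference (Hbb-bt -0.38 and Alas2 -0.14, neither called). Hbb-b2, a beta globin with near-identical relatives that may share its probe, was 2.45-fold higher (adjusted p = 0.0276), and Hba-a1, an alpha globin, was 1.71-fold higher without passing (adjusted p = 0.0553), although it was called with the slide as a block. In 13 macrophage and MHC class II genes the sum was 1500 to 1502 at 1 h and 2195 to 2257 at 3 h, 11 had a positive difference and 2 a negative one (Lyz2 -0.96, C1qb -0.46). Fcer1g, an Fc receptor chain, was 2.09-fold higher (adjusted p = 0.0485), but was not called with the slide as a block (0.0569), where Lyz2, a lysozyme of macrophages, was the list's 1 call, lower at 3 h. Fcer1g was detected on only 1 of the 1 h arrays. Neither Fcer1g nor Hbb-b2 was called with the 12-array spread. Aif1, a defining macrophage marker, was not detected on any of the 4 arrays. Acta2, the smooth muscle actin of pericytes, fell by 2.71-fold (adjusted p = 0.0171) and was detected on only 1 of the 3 h arrays. The median over 13 endothelial and pericyte genes was 0.00. The part of these cells in the changes above was not tested.

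Outside the lists, the genes with the smallest adjusted p among those called lower included several regulators. Mest, an imprinted gene of the hydrolase family, read 11.56 and 11.58 at 1 h and 9.75 and 9.89 at 3 h, 3.37-fold lower (adjusted p = 0.00359), with a dimmer second probe at -0.53 that did not pass. Plagl1, an imprinted zinc-finger factor, read 8.42 and 8.07 at 1 h and was undetected at 3 h and in controls, at least 4.69-fold lower than at 1 h (adjusted p = 0.00489). Rasgrp1, an exchange factor that activates Ras, read 9.12 and 9.26 against 7.28 and 7.40 (3.61-fold lower, adjusted p = 0.00376), with a second probe at -0.62 that did not pass. Gbf1, an exchange factor of the Golgi, fell by 3.58-fold, Rad51c, a recombination protein, by 3.35-fold and Gper1, a membrane oestrogen receptor, by 2.37-fold. Rad51c was detected on only 1 of the 3 h arrays. With the 12-array spread Rad51c (limma adjusted p = 0.0717) and Gper1 (0.0556) were not called, while Mest, Plagl1, Rasgrp1 and Gbf1 were.

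Of the genes called higher, the one with the smallest adjusted p was Ttc27. Ttc27, a tetratricopeptide protein, read 6.18 and 5.56 at 1 h and 7.95 and 8.25 at 3 h (4.69-fold higher, adjusted p = 0.00489), while the controls read 8.57 and 8.70. Ttc27 was therefore lowest at 1 h, below both other groups. It was detected on only 1 of the 1 h arrays, so the size of its rise rests partly on an undetected value. Ppan, a ribosome biogenesis factor, read 7.04 and 6.98 against 8.50 and 8.40 (2.71-fold higher, adjusted p = 0.00601). Eif3j1, an initiation factor subunit, and Haus1, an augmin subunit of the spindle, were undetected at 1 h and at least 2.47-fold and 1.81-fold higher at 3 h. With the 12-array spread Haus1 was not called (limma adjusted p = 0.0623), while Ttc27, Ppan and Eif3j1 were.

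Prrc2c, a protein of stress granules, was 2.80-fold higher (adjusted p = 0.0158). Of 3 further probes 1 also passed, with a log2 difference of 1.90, while the others differed by 0.13 and -0.15. Tmem127, a membrane protein of the endosome, was 2.41-fold higher with a second probe at -0.24, and Ehd4, an endocytic recycling protein, was 2.03-fold higher with a second probe at 0.27. Zfp367, a zinc-finger factor, was 2.55-fold higher (adjusted p = 0.0171). Cfap20dc was undetected at 1 h and at least 1.51-fold higher. With the 12-array spread Prrc2c (limma adjusted p = 0.0515), Zfp367 (0.0525) and Cfap20dc (0.0752) were not called, while Tmem127 and Ehd4 were.

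The most similar comparison, 3 h against 1 h in Crhr1 knockout pituitary, was used to ask which wild-type changes differed by genotype. In the fit of all 12 arrays the change differed for 44 of 11766 features (0.374%), 15 more positive and 29 more negative in wild type. Of these 44, 28 were among the 236 wild-type calls, which were 2.01% of all features. Both tests contain the same wild-type difference, so this overlap was favoured in advance and is not independent evidence. Rasgrp1 fell in wild type, while its knockout arrays read 8.56 and 8.19 at 1 h and 9.18 and 9.15 at 3 h (wild-type minus knockout change -2.65 ± 0.23, SE, 2 arrays per group, limma adjusted p = 0.00343). Ttc27 rose in wild type, while its knockout arrays read 9.16 and 9.20 at 1 h and 8.33 and 8.23 at 3 h (difference 3.13 ± 0.30, adjusted p = 0.00572). On 1 of the wild-type 1 h arrays Ttc27 was not detected.

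The early genes showed no difference by genotype that passed the test. Fos had a knockout difference of -2.45 against -3.13 in wild type (adjusted p of the difference 0.618), Egr1 of -3.36 against -2.35 (0.236), Npas4 of -2.41 against -3.09 (0.328) and Nr4a2 of -2.01 against -3.34 (0.258). Socs3 had a knockout difference of 1.10 against 1.24 (0.812), with knockout arrays at 8.69 and 8.96 at 1 h and 9.98 and 9.87 at 3 h. Mt2 had -0.11 against 1.85 (0.124) and Cirbp -0.08 against 1.72 (0.0812), and neither passed. A p that misses the threshold does not show equal change.

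Of the 138 features called lower in wild type 97 (70.3%) had a negative difference in knockout, against 58.7% of all features, and of the 98 called higher 47 (48%) had a positive one, against 41.2%. Within slide 1 these shares were 65.9% against 52.8% and 59.2% against 47.2%, and within slide 2 66.7% against 61.1% and 40.8% against 38.8%. Replicate 2 of the knockout 3 h group had 6119 detected probes, the fewest of all arrays. Without it 17 features differed by genotype, without replicate 1 of that group 1370.

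**Figure D5:**
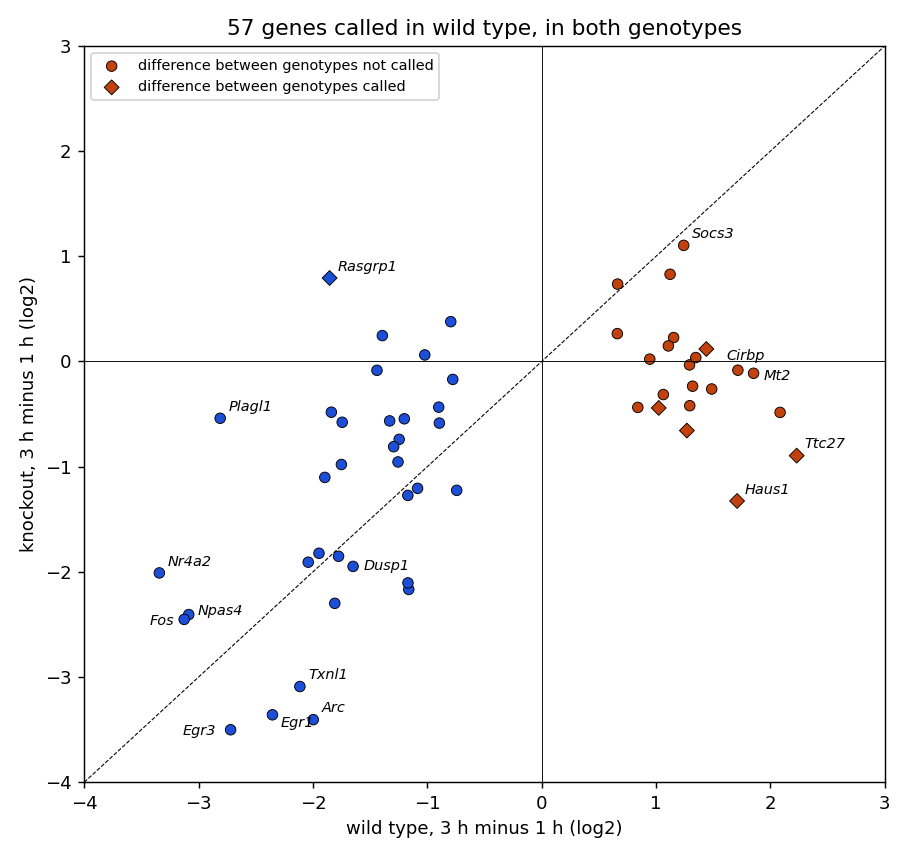
Log2 difference 3 h minus 1 h in knockout (vertical axis) against wild type (horizontal axis) for 57 named genes called in wild type, orange for higher and blue for lower, with the line of equal change dashed. Diamonds mark the 6 genes whose difference between genotypes was called (Ttc27, Ppan, Tmem127, Haus1, Ehd4 and Rasgrp1). Fos, Egr1, Egr3, Npas4, Nr4a2 and Arc lie low on both axes.

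A further fit averaged the 2 arrays of each pool and estimated the change shared by both genotypes from 6 pools. Its error held variation between pools together with any difference between the genotypes in their response, and the fit cannot separate the 2. In limma 0 of 11766 features passed (0%), with 939 at an unadjusted p under 0.05. With array medians aligned in place of quantile normalization 30 passed, 20 of them lower at 3 h, among them Egr1, Dusp1, Fosl2, Nr4a2, Fos, Junb, Npas4 and Arc. Without knockout 3 h replicate 2, an alternative added after the data were seen, 33 passed, 22 higher and 11 lower.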

How the data were processed

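The deposited files of each array hold mean bead intensity per probe, neither background-subtracted nor normalized, and a detection p-value, both made by the authors with BeadStudio, as the submitters' processing notes and the headers record. The deposited number of beads behind each signal, per the file headers, served only to describe the arrays. The authors' deposited value table, already background-subtracted and normalized intensity, served as an alternative. Samples were grouped by their titles. Raw intensities were corrected by normexp in limma 3.58.1 (R 4.3.3), with an offset of 16 and background read from the detection p-values, then quantile normalized over 12 arrays and log2 transformed. Probes with detection p under 0.01 on at least 2 of the 12 arrays (14405) were kept, without 14 probes absent from the value table.

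Of the probes 29542 had 1 gene symbol, 11 several and 16594 none. Symbols were matched to RefSeq, which changed 0 of them. The probe with the highest mean stood for a gene. Differences were fitted with lmFit and eBayes, 1 term per group, on 10 arrays for the wild-type change and on 12 for the genotype difference. The fit was checked on simulated data. The number of arrays limits the precision.

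The members, the 33 gene lists and the tests were chosen with earlier results of these data known. Named were the 14 called genes with the smallest adjusted p in each direction, the called members of each list or otherwise up to 3 members, and 13 genes fixed by name. Arrays of replicate 1 lay on slide 1 and those of replicate 2 on slide 2, per the file headers. The deviations of same-numbered wild-type 1 h and 3 h arrays from their group means correlated at -0.155. The N = 2 per group of the design text may count pools instead of arrays, and the source field of the knockout 3 h arrays names 1 h against their titles.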

Additional observations from a re-analysis of the deposited data

Results flagged for a closer look

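In 6 genes named above the change from 1 h to 3 h differed between the genotypes, by the interaction test in limma on all 12 arrays (2 per group, Benjamini-Hochberg adjusted over 11766 features). The wild-type minus knockout difference in the log2 change was 3.13 for Ttc27 (adjusted p = 0.00572), 1.32 for Ppan (0.0494), 1.93 for Tmem127 (0.0407), 3.04 for Haus1 (0.0437), 1.47 for Ehd4 (0.0437) and -2.65 for Rasgrp1 (0.00343). In wild type the first 5 rose and Rasgrp1 fell. In knockout Ttc27, Tmem127, Haus1 and Ehd4 had differences of -0.90, -0.66, -1.33 and -0.44, Ppan had 0.12 and Rasgrp1 had 0.79. Tmem127, Ehd4 and Rasgrp1 each had a second probe that did not pass in wild type. Haus1 was undetected on both wild-type 1 h arrays and Ttc27 on 1 of them, so the sizes of their differences rest partly on undetected values. In the same 12-array fit the wild-type change of Haus1 was not called (limma adjusted p = 0.0623).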

How the results depend on the processing

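All 57 named called genes kept their direction in 24 alternatives, and Egr1, Mest, Npas4, Nr4a2, Rasgrp1, Ttc27 and Txnl1 were called in each of them. That the directions were kept was largely set in advance. Alternatives that changed only the spread, such as all 12 arrays in the fit, left each difference as it was. All 236 calls, and 6150 of all 11766 features, had no overlap between the 1 h and 3 h arrays. Leaving out 1 of these arrays therefore could not reverse a call. The number of calls moved widely. Against 236 calls (98 higher, 138 lower), there were 65 (22 and 43) with all 12 arrays in the fit, 36 (9 and 27) with the 6 wild-type arrays and 36 (12 and 24) with the 4 compared arrays. Leaving out 1 array at a time gave 9 to 270 calls (2 to 107 higher, 7 to 163 lower): 9 without wild-type 1 h replicate 1, 11 without its replicate 2, 14 and 20 without the wild-type 3 h arrays, and 104 without either knockout control. The lone array left in a group was then assumed to vary like the other groups. With the slide as replicate block there were 287 (111 and 176), 223 of them shared; of the named calls only Nfkbiz, Dbp and Fcer1g were lost. Array weights gave 376 (152 and 224), an offset of 50 385 (164 and 221), no filter on dim probes 124 (52 and 72), the deposited values of the authors 81 (37 and 44), and eBayes with trend and robust options 545 (245 and 300). Median centring gave 181 (115 and 66), which moved the share of higher calls from 41.5% to 63.5%, and the median of all features from -0.02 to 0.09. A slide term with the 2 wild-type 3 h arrays crossed, added after the data were seen, gave 276 calls. The genotype difference, 44 features, became 16 with array weights, 13 with median centring, and 6 to 1370 without 1 array. With the block it was 43. The pool comparison gave 30 (10 higher, 20 lower) with median centring, and 33 (22 higher, 11 lower) without knockout 3 h replicate 2, an alternative added after the data were seen. The causes were not tested. Genes near the detection limit have only bounds, and no change can be read for Pomc, Gh and Prl, which shared the top ranks.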
